A study of Mus musculus with 4 samples.

Results

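Transcript levels of 4 genes of the ion balance of photoreceptors were examined in the mouse eye. Atp1b1, Atp1b2 and Atp1b3 encode beta subunits of the Na,K-ATPase, and Kcnv2 encodes the potassium channel subunit Kv8.2. They were chosen by name and identified by gene symbol, 4 of the 22863 genes with values. The samples were eyes of C3H/f+/+ mice, a strain that makes melatonin and has been freed of the Pde6b mutation that otherwise destroys the rods of C3H mice. Before subjective day samples were taken, the mice spent 18 hours in darkness (30 hours in another passage of the text), and they were taken at CT 6, that is, 6 hours after the light would have come on. Objective day mice had been in the light that morning, were dark-adapted for 1 hour and were taken at ZT 6. The comparison asks what light exposure adds at a fixed clock phase. Each condition had 2 samples, each a pool of 4 eyes from 2 mice (1 female and 1 male), of retina, RPE, choroid and posterior sclera together, so that an eye was compared and not a purified photoreceptor.

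In darkness, sodium and calcium enter the rod outer segment through cyclic nucleotide-gated channels, and potassium leaves the inner segment, which closes the loop of the dark current. The Na,K-ATPase of the inner segment pumps sodium out and potassium back in, at a large cost in ATP. The pump is a pair of a catalytic alpha subunit and a beta subunit that is needed for folding, export to the membrane and affinity for potassium. Beta 2 (Atp1b2) is the main beta subunit of photoreceptors. Kv8.2 makes no channel by itself. It joins pore-forming subunits of another potassium channel family, and the mixed channel carries much of the outward potassium current of the inner segment. Loss of KCNV2 in humans causes cone dystrophy with supernormal rod response.

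Promoter sequence was looked at for sites of factors known from photoreceptors, the clock and light responses. RefSeq promoter windows on GRCm38.p6, from 250 bases before to 50 bases after a start site, were at hand for Atp1b1 (1 window) and Atp1b3 (2 windows). Each was searched on both strands for TAATCC (a CRX-type homeodomain site), TGCTGA (the core of the NRL site), CACGTG (the E-box of clock factors), TGACGTCA (the cyclic AMP response element) and GCGTGGGCG (an EGR site). Of 32851 promoter windows, 7.06% held the CRX-type site, 19.5% the NRL core, 7.15% the E-box, 1.79% the cyclic AMP response element and 0.612% the EGR site. The windows of Atp1b1 and of the outer start of Atp1b3 held none of these letters. The only match was an E-box before a second start site of Atp1b3, which lies 727 bases downstream of the first base of the GENCODE gene. It is shown because it is the only match in the windows searched. The E-box begins 221 bases before that start and is in capitals, in the minus strand of chr9:96363901-96363965 written 5′ to 3′, where GENCODE has no exon.
Atp1b3, second start: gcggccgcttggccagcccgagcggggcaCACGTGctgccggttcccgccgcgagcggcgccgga
The match describes the letters of this window, and no binding was measured. The counts of Atp1b3 are for the whole gene and do not separate its start sites.

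Values were gene counts that had been adjusted to a common library size, called adjusted counts here, and their totals ran from 33278417 to 35236783 per sample. Fold changes are objective day over subjective day on the log2(adjusted count + 1) scale and were tested with limma over 17784 genes, with a Benjamini-Hochberg adjusted p under 0.05 as the call. By this test 1514 genes were called, or 8.51%, of which 189 (1.06%) were higher and 1325 (7.45%) were lower in objective day. The median log2 fold change of all genes tested was 0.015. Markers of the neural retina were present in every sample, and the summed adjusted counts of 9 rod markers were 2394720 and 2103080 in the subjective day samples against 2646940 and 2360280, with 0 of 9 called by limma and 2 at an unadjusted p under 0.05. Slc1a3 and Aqp4 of 7 Müller glia markers, Rpe65 and Ermn of 7 RPE markers and Calb1 of 7 amacrine and horizontal cell markers were called lower. Tissue in front of the retina was also represented. The sum of 5 lens markers was 39047 and 5016 in subjective day, compared with 45790 and 11972 in objective day, although the lens had been removed, and these sums differ within each condition. Markers of ocular surface epithelium were called lower in 4 of the 4 tested, with sums of 10033 and 10394 against 2802 and 5187, while the cornea-defining keratin Krt12 stayed between 1.78 and 12.5. In such whole-tissue samples, fewer cells of a type and less RNA per cell cannot be told apart.

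Neither the 3 beta subunit genes nor Kcnv2 passed the test of a difference between the conditions. All 4 were abundant and passed the filter on low values, 0 of 4 were called by limma, against 8.51% of all genes tested, and 0 of 4 had an unadjusted p under 0.05, against 25.4% of all genes tested. The estimated changes lay between -5.24% for Atp1b1 and 11.6% for Atp1b2. Because each condition had 2 samples, the intervals around these changes reach as far as 34.4% upward for Atp1b2 and -14.2% for Atp1b1, and changes within them could not be told from none. In size, the change of Atp1b2 (0.16 on the log2 scale) was close to the median absolute change of all genes tested, 0.16, and those of the other 3 genes were exceeded by most genes, at percentiles of 25.6 (Atp1b1), 10.2 (Atp1b3) and 8.78 (Kcnv2).

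Atp1b2, the beta 2 subunit of the photoreceptor pump (ENSMUSG00000041329, chr11:69599736-69605942 on the minus strand of GRCm38, 7 exons), had adjusted counts of 67532 and 60256 in the subjective day samples. In the objective day samples its adjusted counts were 75794 and 66817. The lower objective day sample lay below the higher subjective day sample, so that the conditions overlapped. The means were 63894 ± 5145 (SD, n = 2) and 71306 ± 6348 (SD, n = 2), and the log2 fold change was 0.16 (SE 0.11, 95% interval -0.11 to 0.43, limma adjusted p = 0.435), a change of 11.6% with an interval from -7.37% to 34.4%. The log2 value was 0.067 without objective day sample 1, 0.25 without objective day sample 2, 0.24 without subjective day sample 1, 0.076 without subjective day sample 2 and 0.088 with the GC trend removed, and it passed the test in none of these. Spread between the samples of a condition, 8.05% and 8.90% of the mean, was far above the counting error of about 0.385%. In both conditions sample 1 was the higher one, which was also so for the rod marker sum and the lens marker sum, and the part of either in the spread of Atp1b2 was not tested.

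Atp1b1, the beta 1 subunit, which is widely expressed (ENSMUSG00000026576, chr1:164437109-164458355 on the minus strand, 6 exons), had adjusted counts of 12032 and 11822 in the subjective day samples and of 11296 and 11308 in the objective day samples. Both objective day samples were below both subjective day samples, and the conditions did not overlap, which was so for 56.1% of all genes tested. The means were 11927 ± 148 and 11302 ± 8.49 (SD, n = 2 each), and the log2 fold change was -0.08 (SE 0.061, 95% interval -0.22 to 0.066, limma adjusted p = 0.474). An exact permutation test of the 2 against 2 samples gave p = 0.333 (two-sided), the smallest value that this design allows. The objective day samples differed from each other by much less than the counting error of about 0.928%, so that their small SD does not describe the precision. Exons of Nme7, on the other strand, overlap exons of Atp1b1. Since the strand setting of the counting is not given in the sources used here, reads of the 2 genes may not have been told apart, and the count of Atp1b1 is uncertain to that extent.

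Atp1b3, the beta 3 subunit (ENSMUSG00000032412, chr9:96332655-96364442 on the minus strand, 7 exons), had adjusted counts of 2535 and 2647 in the first condition (subjective day) and of 2635 and 2441 in the second (objective day). The samples of the conditions were interleaved. The means were 2591 ± 78.9 and 2538 ± 137 (SD, n = 2 each), and the log2 fold change was -0.03 (SE 0.066, 95% interval -0.19 to 0.12, limma adjusted p = 0.811). Its sign was positive, at 0.0097, when the samples were scaled to equal totals.

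Kcnv2, the Kv8.2 subunit (ENSMUSG00000047298, chr19:27322588-27337179 on the plus strand, 2 exons), reached 23099 and 22651 adjusted counts in subjective day, compared with 23639 and 21352 in objective day. The objective day samples were the highest and the lowest of the 4. The means were 22875 ± 317 and 22496 ± 1617 (SD, n = 2 each), and the log2 fold change was -0.03 (SE 0.080, 95% interval -0.21 to 0.16, limma adjusted p = 0.872), a change of -1.78% with an interval from -13.7% to 11.8%. Its sign also turned under equal totals, to 0.014.

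**Figure D1:**
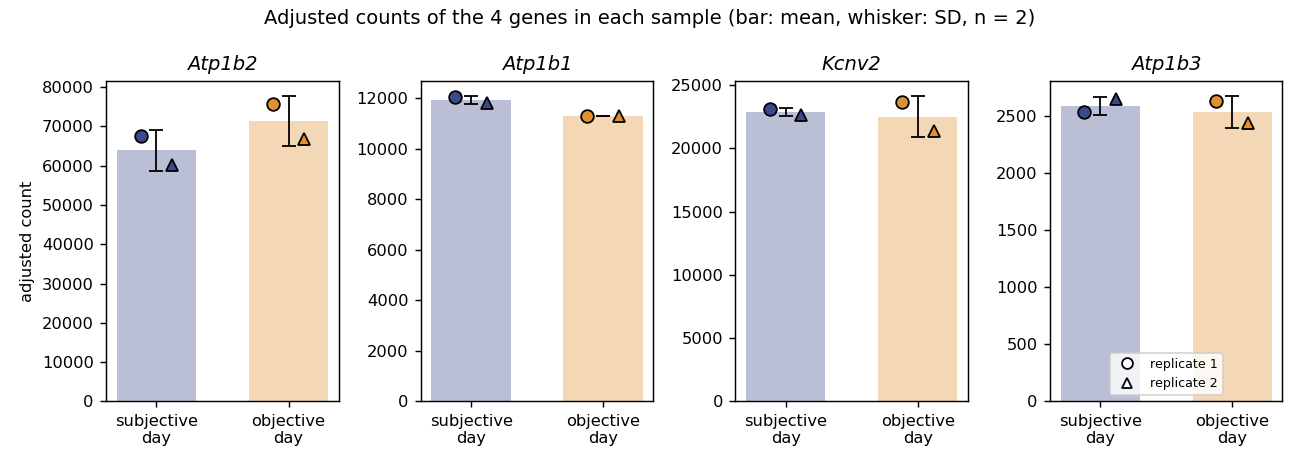
Adjusted counts of the 4 genes, 1 panel per gene on axes that start at 0, with bars for the mean of each condition, whiskers for the SD (n = 2), circles for replicate 1 and triangles for replicate 2. Conditions overlap for Atp1b2, Atp1b3 and Kcnv2, whereas for Atp1b1 the objective day samples (11296 and 11308) lie below the subjective day samples (12032 and 11822).

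Levels of different genes were compared per kilobase of the longest coding transcript in GENCODE M21, a length model that can misstate a gene whose 3′ end is shorter in the eye. Per kilobase, Atp1b2 had the highest level of the 4 genes, with a mean over the 4 samples of 23786 and a range of 21202 to 26669. Atp1b1 followed with 4502 (4378 to 4664) and Kcnv2 with 4441 (4180 to 4628), and these neighbours in the order did not differ beyond their spread, since the level of Atp1b1 was 1.03 times that of Kcnv2 in both subjective day samples and 0.946 and 1.05 times in the objective day samples. Atp1b3 was lowest at 1286 (1224 to 1327). The order Atp1b2 above Atp1b1 and Kcnv2 above Atp1b3 held in each of the 4 samples. For comparison, the rod outer segment genes had 14744 (exchanger Slc24a1), 8159 (channel subunit Cnga1) and 3194 (channel subunit Cngb1) adjusted counts per kilobase. These 3 genes of the dark current were named for their role after their values were seen.

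**Figure D2:**
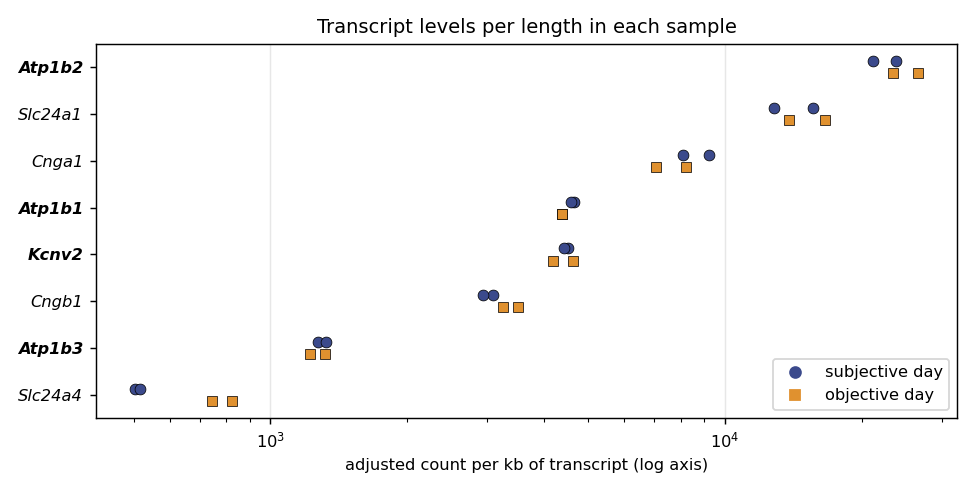
Adjusted counts per kilobase of transcript (log axis) for the 4 genes, in bold, and 4 outer segment genes, with circles for subjective day and squares for objective day samples. Atp1b2 (mean 23786) is highest, Atp1b1 and Kcnv2 have like levels (means 4502 and 4441), and Atp1b3 (1286) is lowest of the 4 genes.

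Within a sample, the ratio of 2 genes does not depend on how the sample was scaled, but it can carry a difference in GC content between the 2 genes, since fold changes ran with GC content in these libraries. The ratios were chosen after the values were seen, so they are given as a description, and each that did not overlap had an exact permutation p of 0.333, the smallest that 2 against 2 samples can give. Among the 3 beta subunit genes, Atp1b2 made up 80.0% and 78.2% of the transcripts per kilobase in subjective day, compared with 82.4% and 80.7% in objective day. The share of Atp1b1 was 15.7% and 16.9% against 13.5% and 15.1%, and that of Atp1b3 was 4.28% and 4.90% against 4.08% and 4.20%. None of these shares overlapped between the conditions. They are parts of 1 total, so they are not 3 separate observations. How often such shares or ratios do not overlap was not computed, whereas 56.1% of single genes tested did not overlap. The mean share was 2.46 percentage points higher for Atp1b2 in objective day, with SDs of 1.28 and 1.17 points, and differed by -2.01 points for Atp1b1. As a ratio, Atp1b2 over Atp1b1 was 5.10 and 4.63 in subjective day, compared with the higher values of 6.09 and 5.36 in objective day. The change between the means of the log2 ratios was 17.7%. Atp1b2 over Atp1b3 was 18.7 and 16.0 against 20.2 and 19.2, and Atp1b1 over Atp1b3 overlapped, at 3.67 and 3.45 against 3.31 and 3.58. With the GC trend removed, an alternative added for the ratios after the data were seen, the log2 change of Atp1b2 over Atp1b1 was 0.16 in place of 0.24, and that of Atp1b2 over Atp1b3 was 0.074 in place of 0.19.

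Set against the genes through which the dark current enters, the ratios of Kcnv2 went in opposite directions before the GC trend was removed. Kcnv2 itself had a log2 fold change of -0.03, compared with -0.18 for Cnga1 and 0.17 for Cngb1. Kcnv2 over Cngb1, the beta subunit of the rod cyclic nucleotide-gated channel, was 1.47 and 1.51 per kilobase in subjective day, compared with 1.32 and 1.29 in objective day. The change between the means of the log2 ratios was -12.4%. Kcnv2 over Cnga1, the pore-forming alpha subunit of that channel, was 0.489 and 0.548 against 0.563 and 0.592, a change of 11.5% by the same measure. Neither ratio overlapped. The channel genes differ in GC content, at 42.6% for Cnga1 and 53.9% for Cngb1 against 48.3% for Kcnv2, in the direction of the trend across all genes. With that trend removed, the log2 change of Kcnv2 over Cngb1 was -0.073 in place of -0.19, and that of Kcnv2 over Cnga1 turned to -0.070 from 0.16. Atp1b2 over Slc24a1, the rod exchanger that draws on the sodium gradient of the pump, overlapped, at 1.52 and 1.65 against 1.61 and 1.70.

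**Figure D3:**
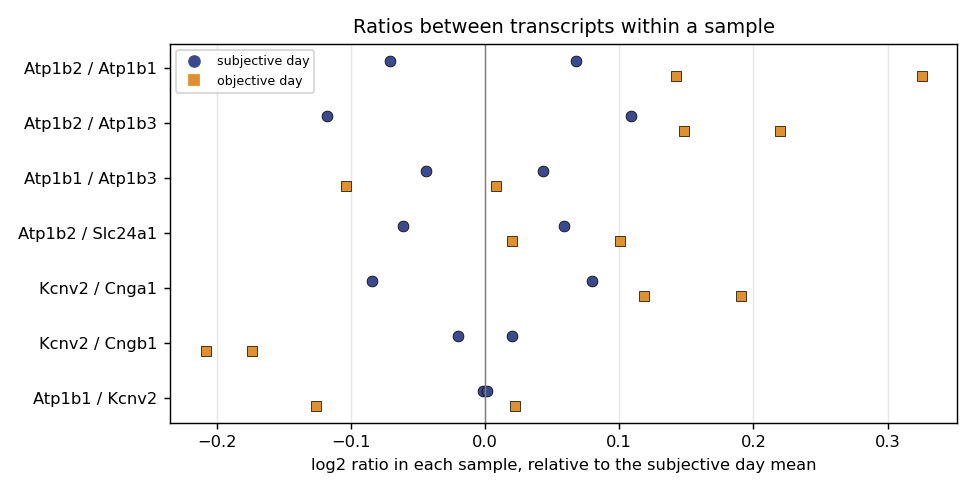
Log2 ratio of transcripts per kilobase within each sample, relative to the subjective day mean, with 1 row per ratio, circles for the 2 subjective day samples and squares for the 2 objective day samples. Ratios of Atp1b2 to the other beta subunits and of Kcnv2 to Cnga1 lie to the right in objective day, that of Kcnv2 to Cngb1 lies to the left (a change of -12.4%), and the other ratios overlap. With the GC trend removed, the ratio of Kcnv2 to Cnga1 turned (-0.070).

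Of 9 other genes of the pump, mostly FXYD proteins, small membrane proteins that adjust the pump, 8 passed the filter and 0 were called by limma (3 had an unadjusted p under 0.05, as did 25.4% of all genes tested). Of the 8, 7 had a positive log2 fold change and the median was 0.35, compared with 0.015 over all genes tested. Their GC contents ran from 50.1% to 59.4%, and genes of like GC content had a median of 0.11. With the GC trend removed the median of the 8 was 0.27, with 7 positive. Before that removal, the positive values were larger in the less abundant genes. They were 0.60 for Atp1a4, 0.39 for Fxyd4 and 0.51 for Fxyd2, with counting errors of about 20.4%, 28.4% and 12.0%. Fxyd7 had 0.31 (5.51%). The most abundant, Fxyd1 and Fxyd6, had 0.14 and 0.12 (2.38% and 2.16%). These genes were named after their values were seen. Values of 7 of the 8 did not overlap between conditions, against 56.1% of all genes tested, and 6 of these 7 were higher in objective day. The 2 with the smallest adjusted p were Fxyd3 and Fxyd5. Fxyd3, known mainly from epithelia, had 80.9 and 83.1 adjusted counts in subjective day, compared with 36.7 and 53.7 in objective day (log2 fold change -0.87, SE 0.24, limma adjusted p = 0.0694). The markers of ocular surface epithelium had a median log2 fold change of -1.43 in the same samples, and their part in the value of Fxyd3 was not tested. Fxyd5 had 218 and 135 against 262 and 237 (log2 fold change 0.54, limma adjusted p = 0.175). Its value was 0.88 (limma adjusted p = 0.00396) without subjective day sample 1 and 0.19 (limma adjusted p = 0.497) without subjective day sample 2.

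Of 14 potassium and pacemaker channel genes around Kcnv2, 13 passed the filter and 0 were called by limma (2 had an unadjusted p under 0.05, against 25.4% of all genes tested). Of the 13, 9 had a positive log2 fold change and the median was 0.10, beside 0.085 for genes of like GC content and 0.014 with the GC trend removed. Values of 8 of the 13 did not overlap, near the 56.1% of all genes tested. The 2 with the smallest adjusted p had fold changes of opposite sign, and neither passed the test. Kcnc2, a subunit of fast delayed rectifier channels, had 1613 and 1729 adjusted counts in subjective day, compared with 1395 and 1480 in objective day (log2 fold change -0.22, SE 0.070, limma adjusted p = 0.106). It was -0.10 with the GC trend removed, and it passed the test without subjective day sample 1 (limma adjusted p = 0.0454). Kcnma1, the pore-forming subunit of the large-conductance calcium-activated potassium channel, had 3268 and 3426 against 3662 and 4122 (log2 fold change 0.22, SE 0.074, limma adjusted p = 0.123). It was 0.35 with the GC trend removed, where it did not pass the test, and 0.13 without objective day sample 2. On scaling to rod markers Kcnma1 was 0.058 and Kcnc2 was -0.37, and neither passed the test.

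In the outer segment list of cation channels and exchangers, all 7 genes passed the filter, 4 were positive and the median log2 fold change was 0.046. Genes of like GC content had a median of 0.038. With the GC trend removed the median of the list was 0.081, with 5 positive. An unadjusted p under 0.05 was found for 3 of the 7, against 25.4% of all genes tested, and 4 of the 7 did not overlap, near the 56.1% of all genes tested. Slc24a4 was the only gene called, and it was higher in objective day, as were 1.06% of all genes tested. Slc24a4 (ENSMUSG00000041771) encodes a sodium, calcium and potassium exchanger described in cones, which uses the sodium gradient that the pump maintains to remove calcium. It had 2248 and 2306 adjusted counts in subjective day, compared with 3319 and 3679 in objective day. The change was 53.5% (95% interval 37.1% to 71.8%), or 0.62 on the log2 scale (SE 0.069, limma adjusted p = 0.00558), and it was called without each of the 4 samples in turn, but not with 1 variance prior for all genes (limma adjusted p = 0.126). The rod channel genes, through which the dark current enters, had log2 fold changes of -0.18 (Cnga1, limma adjusted p = 0.314) and 0.17 (Cngb1, 0.224), and the rod exchanger Slc24a1 had 0.096 (0.717). With the GC trend removed, the log2 changes of Kcnv2 over Cnga1 and over Cngb1 were alike, at -0.070 and -0.073. Genes described in cones did not share a direction. The 6 cone markers, none of them in this list, all had positive log2 fold changes (median 0.15), with 0 called by limma and 1 at an unadjusted p under 0.05. Cngb3 and Slc24a2 lay lower in objective day without overlap, and neither passed the test. The cone channel subunit Cngb3 had 563 and 533 adjusted counts in subjective day, compared with 422 and 464 in objective day (log2 fold change -0.31, limma adjusted p = 0.0882), and the exchanger Slc24a2 had 2366 and 2736 against 2218 and 2168 (-0.21, limma adjusted p = 0.149). The cone channel subunit Cnga3 overlapped (0.046, limma adjusted p = 0.843). These 3 genes were named after their values were seen.

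Among 10 other ion transport genes of the inner segment and synapse, 0 were called by limma (3 had an unadjusted p under 0.05, against 25.4% of all genes tested), 9 were positive and the median log2 fold change was 0.092, beside 0.087 for genes of like GC content. Values of 6 of the 10 did not overlap, near the 56.1% of all genes tested. The smallest adjusted p belonged to Atp2b2, a plasma membrane calcium pump (log2 fold change 0.21, limma adjusted p = 0.0709), and Cacnb2, the beta subunit of the synaptic calcium channel (0.22, limma adjusted p = 0.075), which passed the test without subjective day sample 1 (limma adjusted p = 0.0388). Both passed under equal totals (limma adjusted p = 0.042 for Atp2b2 and 0.0317 for Cacnb2), and on scaling to rod markers their log2 fold changes were 0.056 and 0.063.

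**Figure D4:**
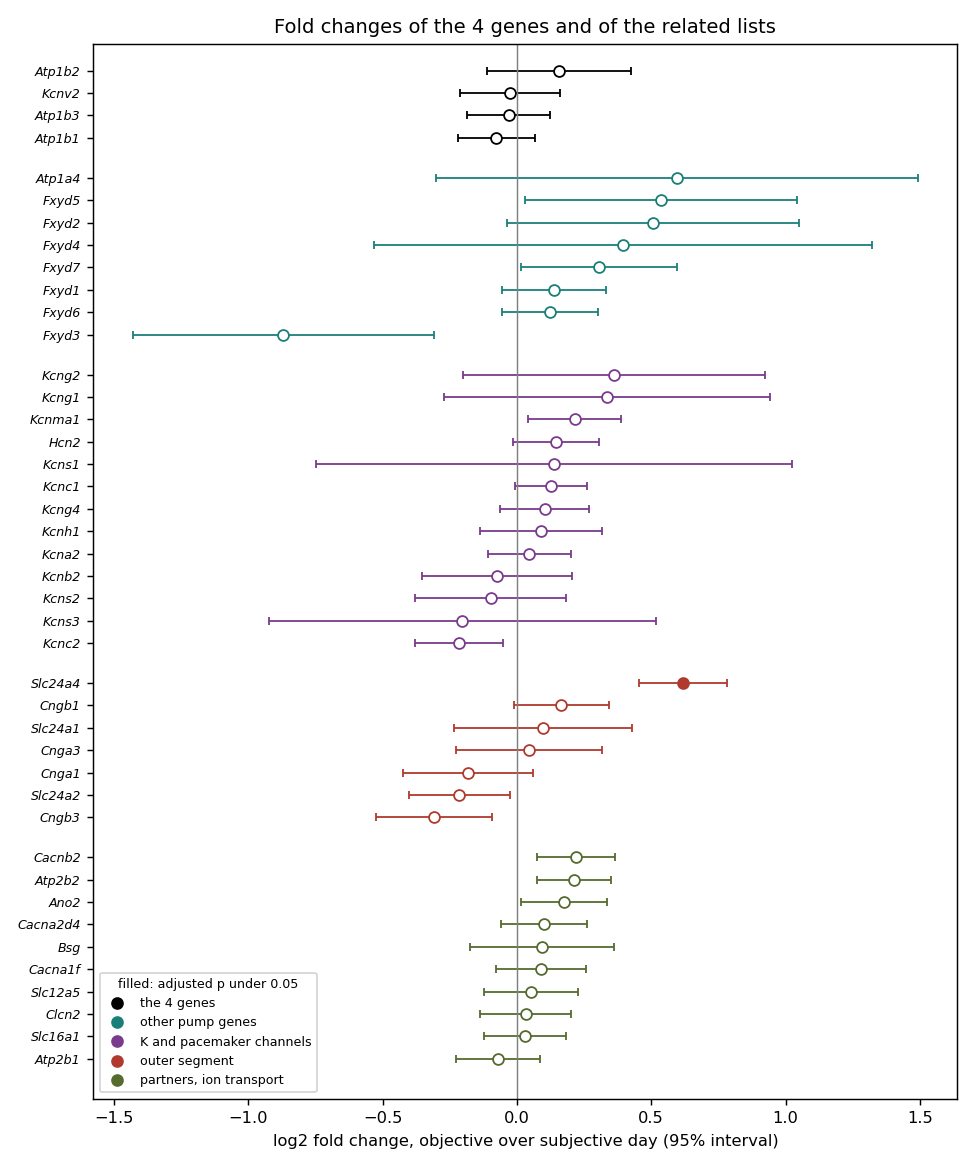
Log2 fold change of objective day over subjective day for the 4 genes and the genes of the 4 related lists, with 95% intervals from limma, filled where the adjusted p was under 0.05. The intervals of the 4 genes include 0, and Slc24a4 (0.62) is the only filled point.

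Fold changes of all genes ran with transcript GC content (Spearman correlation 0.591 on the log2 scale) over the 98.6% of genes tested that have a known GC content. This is a description across genes, which share the 4 libraries. The 4 genes had GC contents from 47.7% (Atp1b3) to 52.4% (Atp1b2), around the median of 50.1%. Genes within 1 percentage point of each had median log2 fold changes of 0.023 for Atp1b1 (1972 genes), 0.085 for Atp1b2 (1893 genes), -0.026 for Atp1b3 (1910 genes) and -0.012 for Kcnv2 (1919 genes). Kcnv2 and Atp1b3 lay close to the median of genes of their own GC content, Atp1b1 lay below it and Atp1b2 above it. Slc24a4, at 52.3%, had neighbours with a median of 0.084. What underlies the relation with GC content was not tested.

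**Figure D5:**
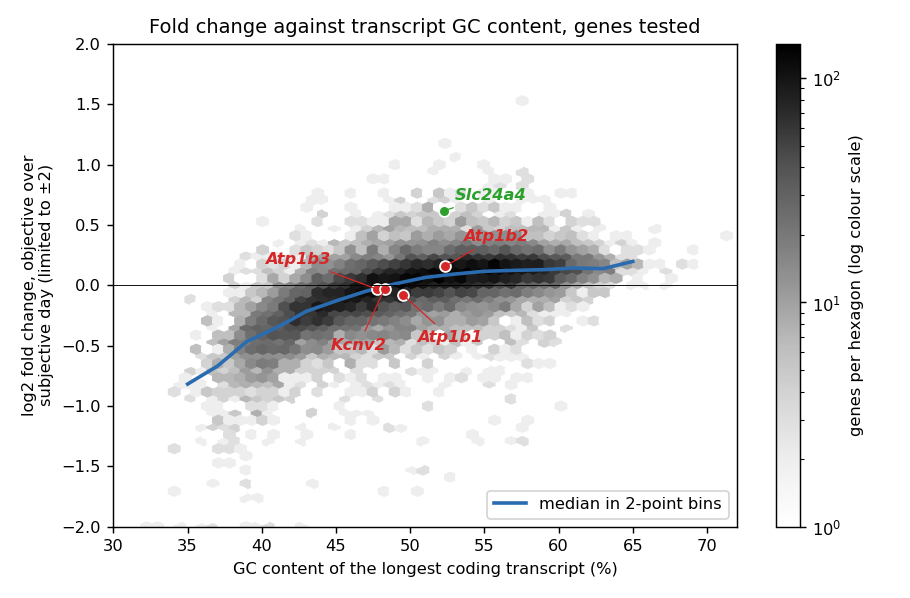
Log2 fold change of objective day over subjective day against transcript GC content (%), with genes tested as hexagons shaded by the number of genes on a log colour scale, a line for the median in bins of GC content, and the 4 genes and Slc24a4 marked. The 4 genes lie between 47.7% and 52.4% near the median line, and Slc24a4 (0.62 at 52.3%) lies above it.

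Genes with the profile most like each of the 4 over the 4 samples were found as those with the smallest root mean square difference of log2 values centred on the gene's mean, among genes with at least 0.1 of its mean level. For Atp1b2 these were Epb4.1l2 (0.0132) and Aes (0.0153), out of 802 genes. For Kcnv2 they were Phyhipl (0.0112) and Ube2r2 (0.0127), out of 3385. Those of Atp1b1 were Gdpd1 (0.00143) and Lurap1l (0.00465), out of 6027, and those of Atp1b3 were Phactr4 (0.00712) and Meis2 (0.00786), out of 11272. With 4 samples many genes have a close profile by this measure, and the names are a description.

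The sizes of the changes also depend on the reference, and the rod markers were used as 1 such reference. The samples held many cell types and Atp1b1 is widely expressed, so a value on this scale is not a change per rod. With each sample scaled to the mean log2 value of the rod markers, the log2 fold change was 0.00045 for Atp1b2 (SE 0.0996, limma adjusted p = 1.0), -0.23 for Atp1b1 (SE 0.107, limma adjusted p = 0.218), -0.19 for Atp1b3 (SE 0.119, limma adjusted p = 0.431) and -0.18 for Kcnv2 (SE 0.102, limma adjusted p = 0.346). This scaling moved the median of all genes to -0.14, and none of the 4 genes passed the test. The log2 fold changes of the 9 rod markers themselves ran from -0.18 to 0.51 (median 0.19), and the choice of markers was not varied.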

How the data were processed

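Poly-A RNA of 4 eye samples (2 per condition) was sequenced as single 50 bp reads on 1 lane. Per the methods and the submitters' processing notes, the authors used CASAVA 1.8, TopHat2 2.0.9, Bowtie2 2.1.0, HTSeq with Ensembl release 72, and edgeR. The strand setting, the low-count filter and the normalization are not given in the sources used here. In the deposited table each gene has 1 signal value per sample, which is a count of reads brought to a library size common to all samples. They have decimals and similar totals, so sequencing depth is unknown and a count test was not applied, although one had been planned for raw counts. The table also holds the authors' own log2 fold changes, log2 CPM, p-values and adjusted p-values, which were not used. No sample column was left unused.

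Fold changes were fitted in R 4.3.3 by limma 3.58.1, using log2(value + 1) of those genes with at least 10 in at least 2 samples, with variances following the mean and Benjamini-Hochberg adjustment over all genes tested. The 2 samples of a condition were taken as biological replicates. The variance behind each p-value combined the gene's own spread between them with a prior fitted over all genes. The fit was also run on simulated data that held no GC trend and no deviation shared by same-numbered samples, so that run cannot speak to either. Lengths, GC content and positions came from GENCODE M21 (GRCm38) and promoters from RefSeq. A second Kcnb2 entry without a GENCODE M21 gene was left out. The genes and lists were chosen with earlier results of these data known, and some genes of the lists, and the third of the 3 nearest profiles planned, are not reported here. Named were the 4 genes, their 2 nearest profiles, and list genes past the threshold or, failing these, the 2 with the smallest adjusted p, with exceptions stated. Counting errors treat adjusted counts as reads. Alternatives covered scaling, filter, pseudocount, variance prior, replicate block, GC trend and each sample left out. Figures were drawn with matplotlib 3.10.9.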

Additional observations from a re-analysis of the deposited data

How the results depend on the processing

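None of the 4 genes was called by limma under any of 15 alternatives, over which the adjusted p ran from 0.0798 to 1.0. The log2 fold change ran from 0.00045 to 0.25 for Atp1b2, from -0.23 to -0.037 for Atp1b1, from -0.19 to 0.024 for Atp1b3 and from -0.18 to 0.047 for Kcnv2. The sign turned under equal totals for Atp1b3 (0.0097) and Kcnv2 (0.014), and with the GC trend removed (0.014 and 0.0075), also with the replicate block (0.014 and 0.0075). Without 1 sample the values ran from -0.086 to 0.024 for Atp1b3 and from -0.099 to 0.047 for Kcnv2. The number of genes called, 1514 of which 87.5% were lower, was 0 with 1 variance prior for all genes (3586 at an unadjusted p under 0.05, against 4512), 3613 with the block, 167 with the GC trend removed, 960 with both, and 674 (without objective day sample 2) to 2778 (without subjective day sample 1) with a sample left out. The share of calls that were lower was 66.1% under equal totals, 98.2% on scaling to rod markers, 64.5% with the block, 58.7% with the GC trend removed and 48.9% with both (491 higher and 469 lower). Equal totals moved the median of all genes to 0.055.

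The replicate numbers are shared by the labels without a stated pairing, and the deviations of same-numbered samples had a correlation of 0.319. In a fit blocked on the replicate number, limma adjusted p was 0.0798 for Atp1b2, 0.255 for Atp1b1, 0.747 for Atp1b3 and 0.759 for Kcnv2. In the pump list 2 genes were called with the block (Fxyd5 higher, Fxyd3 lower), 1 with block and GC trend removed, 1 on rod scaling, and 0 to 2 without a sample. In the channel list the count was 2 with the block (Kcnma1 higher, Kcnc2 lower, limma adjusted p = 0.0203 and 0.0271), 1 with both (Kcnma1, 0.35, limma adjusted p = 0.00882), and 0 to 1 without a sample. In the outer segment list it was 0 with 1 prior, 4 with the block, 2 on rod scaling, and 1 to 2 without a sample. Among the other ion transport genes it was 2 under equal totals (Atp2b2 and Cacnb2), 3 with the block (these included, with limma adjusted p = 0.0139 and 0.0124), 3 with both, and 0 to 1 without a sample. With 1 prior, the limma adjusted p of Slc24a4 was 0.126. The causes were not tested. Depth is unknown, and 2 samples per condition limit the precision.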
